A study of Mus musculus with 4 samples.

Results

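The genes described here are 10 sensors and adaptors through which mouse cells detect double-stranded RNA: Ddx58, Ifih1, Dhx58, Trim25, Mavs, Tlr3, Ticam1, Tbk1, Eif2ak2 and Zbp1. They were chosen by name and function, as every probe set whose only annotated gene symbol was one of the 10, and this gave 17 probe sets of 45037 tested and 10 genes of 17097. The cells were ATDC5, a mouse line that takes on cartilage character in differentiation medium. In the Chadl knockdown group (2 arrays) the cells had received a double-stranded RNA duplex against Chadl, which encodes the leucine-rich repeat protein chondroadherin-like, and in the control group (2 arrays) a scrambled duplex from the same supplier. Both groups had 30 nM of a 27-mer duplex delivered with a lipid reagent, a change to differentiation medium after 16 h, and 5 days of differentiation before RNA was taken. No arrays of untransfected cells were analysed here, so every value below sets one transfected duplex against another. The labels name the duplexes shRNA, describe a single effective sequence against Chadl, and do not say whether the replicate cultures were separate, so p-values measure only the spread between these arrays, which may be technical.

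Double-stranded RNA in the cytosol is bound by the helicases RIG-I, encoded by Ddx58, and MDA5, encoded by Ifih1, which pass the signal to the mitochondrial adaptor MAVS, while TLR3 detects it in endosomes and signals through TRIF, encoded by Ticam1. Both routes meet at the kinase TBK1, which phosphorylates interferon regulatory factors and so turns on type I interferon genes. PKR, encoded by Eif2ak2, halts translation when it binds double-stranded RNA, and ZBP1 senses left-handed nucleic acids and can start cell death. Several of these sensors are themselves induced by interferon. Both groups were given double-stranded RNA, the class of molecule that RIG-I, MDA5, TLR3 and PKR bind, MDA5 mainly where it is long. The sequence of the Chadl duplex is shown for that reason. Whether any of these proteins bound either duplex was not tested. The labels give 25 nucleotides for the Chadl duplex, of which 14 are A, 6 G, 4 C and 1 U.
Chadl duplex: acaagguagagaaacaaagagacca

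Chadl itself, read by 1 probe set, had log2 signals of 4.29 and 4.64 in knockdown 1 and knockdown 2, against 4.91 and 4.84 in the controls (log2 difference -0.41, SE 0.12, limma adjusted p = 0.728). Both knockdown arrays read lower than both controls, without passing over the whole table. Over all genes, the SD of the difference between the knockdown arrays was 1.93 times that between the controls, so the knockdown pair agreed less well than the control pair. Of the cartilage markers, Col2a1 and Col11a1, which encode fibrillar collagens of cartilage, were bright (percentiles 92.1 and 96.4 of gene signal), while Comp and Matn1, which encode cartilage matrix proteins, were dim (percentiles 36.5 and 37.8). Sox9 and Acan lay between them (percentiles 79.8 and 52.8). All 11 measured leukocyte markers lay below the median gene level, with the pan-leukocyte gene Ptprc at percentile 8.48, and their summed signal was 168 and 167 in the knockdown arrays and 171 in each control. In these bulk samples fewer cells of a type and less RNA per cell cannot be told apart.

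The RNA sensors and adaptors differed by small amounts between Chadl knockdown and control, and 8 of the 10 mean differences were positive, beside 9015 of all 17097 genes. Ddx58, Ifih1, Trim25, Tlr3 and Zbp1 had both knockdown arrays above both controls, Ticam1 had both below, and the arrays of Dhx58, Mavs, Tbk1 and Eif2ak2 overlapped. These 5 of 10 genes above both controls stand beside 21.2% of all genes, and the 1 of 10 below beside 17.1%. The median log2 difference over the 10 genes was 0.10, against 0.0067 over all genes. None of the 10 passed an adjusted p of 0.05 in limma, a linear model with moderated variances fitted across all genes, and neither did any of the 17097 genes (0%). At an unadjusted p of 0.05, 2 of the 10 were higher (Ddx58 and Ifih1) and 0 lower, against 710 higher (4.15%) and 431 lower (2.52%) of all genes. The members' signals ran from percentile 45.9 (Ticam1) to percentile 95.6 (Ddx58), and all 10 were kept when genes under percentile 40 were left out.

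**Figure D1:**
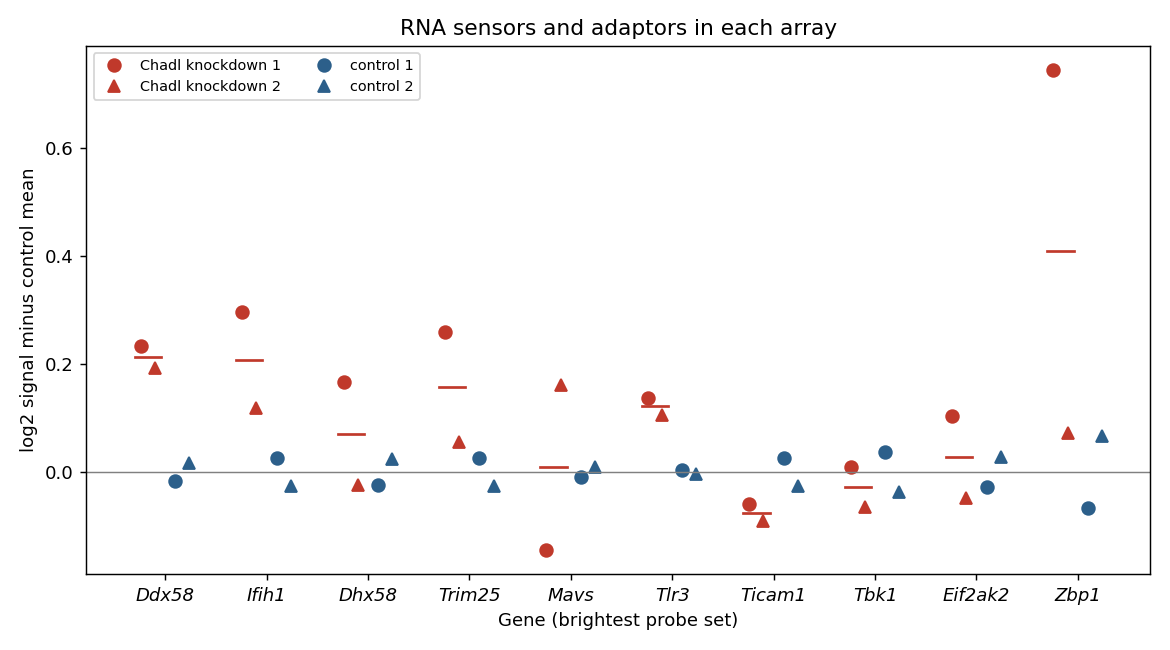
Log2 signal minus the control mean (vertical axis) for the brightest probe set of each of the 10 genes (horizontal axis), with Chadl knockdown arrays in red and control arrays in blue. Points are single arrays and red bars are means of the 2 knockdown arrays. Ddx58 and Tlr3 lie above the controls by similar amounts in both knockdown arrays, while Zbp1 stands at 0.74 in knockdown 1 and 0.07 in knockdown 2.

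Among the cytosolic helicase genes, Ddx58 read 1.16-fold and Ifih1 1.15-fold higher in knockdown, and neither passed over all genes. Ddx58, which encodes RIG-I, the sensor of short double-stranded RNA and of 5′-triphosphate ends, had log2 signals of 9.62 and 9.58 in the knockdown arrays, against 9.37 and 9.41 in the controls. The 2 knockdown arrays lay close together and clear of the controls, with a log2 difference of 0.21 (SE 0.05, 95% confidence interval 0.10 to 0.32, unadjusted p = 0.00285, limma adjusted p = 0.615). This value is that of the brightest of 3 probe sets, and with their mean taken instead the log2 difference was 0.07. Ifih1, which encodes MDA5, the sensor of long double-stranded RNA, had log2 signals of 8.55 and 8.37 in the knockdown arrays, against 8.28 and 8.23 in the controls. Knockdown 1 was the higher of the knockdown arrays, and neither overlapped the controls (log2 difference 0.21, SE 0.08, 95% confidence interval 0.02 to 0.39, unadjusted p = 0.0317, limma adjusted p = 0.743). The spread between the knockdown arrays was larger for Ifih1 (SD 0.13) than for Ddx58 (SD 0.03), with control SDs of 0.04 and 0.02 for the same genes.

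Dhx58 encodes LGP2, the relative of RIG-I and MDA5 that lacks signalling domains and modulates both. It had log2 signals of 8.13 and 7.94 in the knockdown arrays, against 7.94 and 7.98 in the controls. Knockdown 2 was level with the lower control, so the excess was that of knockdown 1 alone and the groups overlapped (log2 difference 0.07, 95% confidence interval -0.12 to 0.27, limma adjusted p = 0.883). Trim25, which encodes a ubiquitin ligase known to act on RIG-I, had 9.55 and 9.34 in the knockdown arrays, against 9.31 and 9.26 in the controls. Knockdown 2 exceeded the higher control by little, and most of the 1.12-fold difference lay in knockdown 1 (log2 difference 0.16, SE 0.07, unadjusted p = 0.0727, limma adjusted p = 0.752).

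The genes of the adaptor MAVS and the kinase TBK1 had overlapping groups. Mavs, the adaptor on the outer mitochondrial membrane, had log2 signals of 5.41 and 5.71 in the knockdown arrays, against 5.54 and 5.56 in the controls. The knockdown arrays lay on opposite sides of the controls, so the mean log2 difference of 0.01 averages 2 differing arrays (95% confidence interval -0.27 to 0.29, limma adjusted p = 0.992). Tbk1, the kinase downstream of MAVS and TRIF, had 8.16 and 8.08 in the knockdown arrays, against 8.18 and 8.11 in the controls. Its arrays were interleaved, and the interval of its difference ran from 1.14-fold lower to 1.09-fold higher in knockdown (log2 difference -0.03, limma adjusted p = 0.95). The interval of Mavs ran from 1.21-fold lower to 1.22-fold higher and so includes the 1.16-fold seen for Ddx58, while that of Tbk1 ends below it.

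On the endosomal route the receptor gene and the adaptor gene differed in direction, with neither passing. Tlr3, the receptor of double-stranded RNA in endosomes, had log2 signals of 8.60 and 8.57 in the knockdown arrays, against 8.47 and 8.46 in the controls. The knockdown arrays differed by 0.03 and the controls by 0.01, and the groups did not overlap (log2 difference 0.12, SE 0.05, 95% confidence interval -0.01 to 0.25, unadjusted p = 0.0645, limma adjusted p = 0.75). Ticam1, which encodes the adaptor TRIF, had 4.56 and 4.53 in the knockdown arrays, against 4.65 and 4.60 in the controls. Both knockdown arrays were below both controls, by a mean of 1.05-fold (log2 difference -0.08, SE 0.08, 95% confidence interval -0.27 to 0.12, limma adjusted p = 0.87).

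Of the effector-type sensors, Zbp1 had the widest difference among the 10 genes and Eif2ak2 had almost none. Zbp1, whose product triggers necroptosis and inflammation through the kinase RIPK3, had log2 signals of 6.31 and 5.64 in the knockdown arrays, against 5.50 and 5.63 in the controls. Knockdown 1 was 1.67-fold and knockdown 2 was 1.05-fold above the control mean, and knockdown 2 cleared the higher control by 0.0059. The mean log2 difference was 0.41 (SE 0.21, 95% confidence interval -0.09 to 0.90, unadjusted p = 0.0915, limma adjusted p = 0.754), and without knockdown 1 it was 0.07. After quantile normalization Zbp1 no longer had both knockdown arrays above both controls. Eif2ak2, which encodes PKR, had 8.53 and 8.38 in the knockdown arrays, against 8.40 and 8.46 in the controls. The knockdown arrays lay on either side of the controls (log2 difference 0.03, 95% confidence interval -0.14 to 0.20, limma adjusted p = 0.956).

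Ifih1, Mavs, Ticam1, Eif2ak2 and Trim25 had 1 probe set each, so no other probe set could be compared. The further probe sets of Dhx58, Tlr3, Zbp1 and Tbk1 gave the same sign as the brightest, while those of Ddx58 differed in sign. The second Tbk1 probe set differed by only -0.0018. Of the 17 probe sets, 13 were higher and 4 lower in knockdown by their mean, and in 7 the knockdown arrays lay wholly above the controls, beside 18.6% of all 45037 probe sets. With every probe set tested, 0 of the 17 passed an adjusted p of 0.05 in limma, beside 1 of all (0.00222%). At an unadjusted p of 0.05, 2 of the 17 were higher (the brightest of Ddx58 and the one of Ifih1) and 0 lower, beside 3.42% of all probe sets higher and 3.83% lower. The second Ddx58 probe set had log2 signals of 7.73 and 7.54 in the knockdown arrays, against 7.59 and 7.51 in the controls, and the dimmest had 5.22 and 5.14, against 5.32 and 5.19. The 3 Ddx58 probe sets thus differed by 0.21, 0.08 and -0.07, and the evenness of Ddx58 across both knockdown arrays rests on its brightest probe set. The 2 Zbp1 probe sets gave nearly the same values, with log2 differences of 0.41 and 0.42. For Tlr3 the second probe set had 6.73 and 6.64 in the knockdown arrays, against 6.68 and 6.52 in the controls, and these overlapped. The 2 further Dhx58 probe sets were dim, with signals between 3.24 and 3.83, and differed by 0.02 each.

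**Figure D2:**
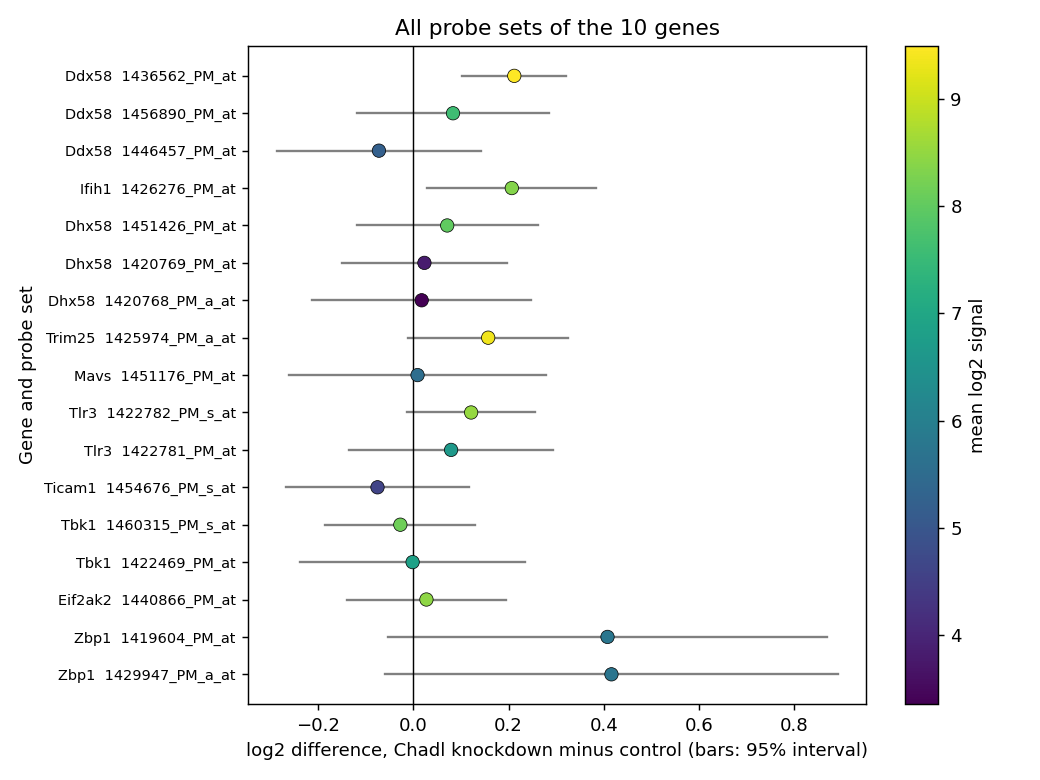
Log2 difference between Chadl knockdown and control (horizontal axis) for the 17 probe sets of the 10 genes (vertical axis, gene and probe set identifier). Points are mean differences of 2 arrays per group coloured by mean log2 signal, and bars are 95% confidence intervals of the fit over all probe sets. The brightest Ddx58 probe set and the Ifih1 probe set are the ones whose bars lie wholly above 0.

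The promoters of these genes were read for 2 short patterns known from interferon-regulated genes. The core of the interferon-stimulated response element was searched as GAAANNGAA and the gamma-activated site as TTCNNNGAA, on both strands, in the 300 bases from 250 before to 50 after each RefSeq gene start (build GRCm38.p6). Of the 10 genes 8 matched the table, and Dhx58 and Zbp1 did not. The GAAANNGAA core was present in 4 of the 8, Ddx58, Ifih1, Eif2ak2 and Trim25, beside 9.76% of the 27025 genes with a window and 8.56% of the 32851 windows. It was absent from the windows of Mavs, Tlr3, Ticam1 and Tbk1. TTCNNNGAA was present in 1 of the 8, Eif2ak2, beside 9.55% of genes and 8.3% of windows, and there it did not overlap the other pattern. The 4 windows with the GAAANNGAA core are shown because 3 of them belong to genes whose knockdown arrays were both above both controls and the other to Eif2ak2, whose arrays overlapped. Capitals mark the matches, written on the strand of the gene, so that a match on the opposite strand reads TTCNNTTTC, and in Eif2ak2 a pair of matches overlap in 1 run of capitals.
Ddx58, chr4:40239776-40240075, minus strand: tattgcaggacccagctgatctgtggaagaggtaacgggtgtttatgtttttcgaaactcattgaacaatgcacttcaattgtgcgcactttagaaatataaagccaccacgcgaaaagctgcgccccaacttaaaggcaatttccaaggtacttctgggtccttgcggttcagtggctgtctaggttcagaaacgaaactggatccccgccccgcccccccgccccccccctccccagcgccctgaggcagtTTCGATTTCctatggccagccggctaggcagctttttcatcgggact
Ifih1, chr2:62646206-62646505, minus strand: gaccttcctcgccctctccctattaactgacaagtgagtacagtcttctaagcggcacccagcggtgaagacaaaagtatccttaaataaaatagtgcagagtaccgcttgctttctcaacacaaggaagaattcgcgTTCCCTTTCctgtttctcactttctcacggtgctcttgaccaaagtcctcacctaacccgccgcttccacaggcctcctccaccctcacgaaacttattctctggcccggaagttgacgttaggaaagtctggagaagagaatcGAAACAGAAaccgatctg
Eif2ak2, chr17:78882523-78882822, minus strand: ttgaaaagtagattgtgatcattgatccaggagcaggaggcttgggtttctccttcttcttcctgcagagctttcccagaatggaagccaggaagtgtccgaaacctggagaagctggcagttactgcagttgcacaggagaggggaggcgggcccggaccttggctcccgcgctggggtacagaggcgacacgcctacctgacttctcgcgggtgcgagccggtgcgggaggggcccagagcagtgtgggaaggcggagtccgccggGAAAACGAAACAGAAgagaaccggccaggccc
Trim25, chr11:88999153-88999452, plus strand: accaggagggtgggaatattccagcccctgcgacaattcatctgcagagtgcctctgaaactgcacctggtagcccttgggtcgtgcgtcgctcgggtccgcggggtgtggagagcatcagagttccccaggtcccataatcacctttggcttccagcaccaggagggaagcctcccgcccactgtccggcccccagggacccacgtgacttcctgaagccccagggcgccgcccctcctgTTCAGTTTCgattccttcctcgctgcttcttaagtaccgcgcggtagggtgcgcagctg

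The matches in Ddx58, Eif2ak2 and Trim25 and the second of Ifih1 lay near the annotated start of the transcript. Counting the first transcribed base as 1, the match in Ddx58 began at 4, those of Eif2ak2 at 19 and 25, that of Trim25 at -9, and those of Ifih1 at -112 and 33. A match is a description of letters in the window and was not tested as a binding site. Tlr3, which had both knockdown arrays above both controls, has no such letters in this window.

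The knockdown arrays differed from each other in which sensors were higher. Knockdown 1 was above the control mean for 8 of the 10 genes and knockdown 2 for 6, beside 8380 and 9465 of all 17097 genes. Knockdown 1 was the higher of the 2 for 9 of the 10, the exception being Mavs, beside 7995 of all genes. The median over the 10 genes was 0.15 above the control mean in knockdown 1 and 0.06 above it in knockdown 2, against -0.0031 and 0.01 over all genes. Ddx58 (0.23 in knockdown 1 and 0.19 in knockdown 2) and Tlr3 (0.14 and 0.11) were nearly even, Ifih1 (0.30 and 0.12) and Trim25 (0.26 and 0.06) leaned to knockdown 1, and Zbp1 (0.74 and 0.07) lay almost wholly in it. With knockdown 1 left out, limma called Ddx58 (adjusted p = 0.00364) and no other of the 10, among 561 genes called in all (3.28%). With knockdown 2 left out, it called 6 of the 10 (Ddx58, Ifih1, Dhx58, Tlr3, Zbp1 and Trim25), among 2584 genes (15.1%). In both of these fits the lone knockdown array is assumed to vary like the controls, which the wider spread of the knockdown pair does not bear out.

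**Figure D3:**
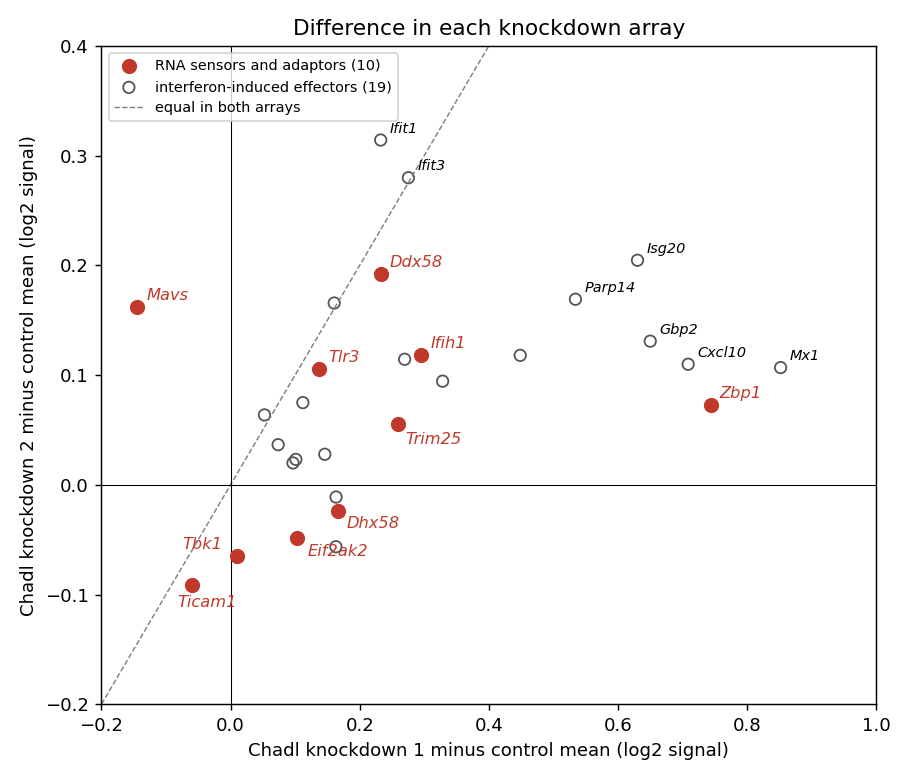
Log2 signal minus the control mean in Chadl knockdown 1 (horizontal axis) and in Chadl knockdown 2 (vertical axis, drawn at a larger scale) for the 10 RNA sensors and adaptors (red) and 19 interferon-induced effector genes (open circles). The dashed line marks equal differences in both arrays. Ddx58 and Ifit3 lie near the line, and Zbp1 lies with Mx1, Cxcl10 and Gbp2 far to the right of it.

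Interferon-induced effector genes, whose products act against viruses, were mostly above the controls in both knockdown arrays. Of 23 listed genes 19 were measured, of which 17 lay wholly above the controls and 0 wholly below, beside 21.2% and 17.1% of all genes. In limma 10 of them were higher at the unadjusted level of 0.05, beside 4.15% of all genes, and 0 passed over all genes. The median over the list was 0.23 above the control mean in knockdown 1 and 0.11 above it in knockdown 2, and 0.19 for the mean of both. Ifit3, whose product acts together with the RNA-binding protein IFIT1, had log2 signals of 11.27 and 11.28 in the knockdown arrays, against 10.98 and 11.01 in the controls, and Ifit1 had 10.58 and 10.66, against 10.35 and 10.34. In both genes the knockdown arrays were close to each other and clear of the controls. Mx1, an antiviral GTPase gene, had 6.84 and 6.09 in the knockdown arrays, against 6.02 and 5.95 in the controls. Knockdown 1 held most of the Mx1 difference. Isg15 was not analysed here.

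The listed regulators of RIG-I-like receptor signalling had a median log2 difference of 0.10 over 10 measured genes. Of these, 4 had knockdown arrays wholly above the controls and 1 below, beside 21.2% and 17.1% of all genes. The median was 0.16 in knockdown 1 and 0.04 in knockdown 2, so most of it lay in 1 array. Rnf135, which encodes the ubiquitin ligase Riplet that activates RIG-I, had log2 signals of 5.05 and 5.08 in the knockdown arrays, against 4.78 and 4.87 in the controls, and no other gene of the list was past the unadjusted level of 0.05 (log2 difference 0.24, unadjusted p = 0.0262, limma adjusted p = 0.728). Zc3hav1, the zinc-finger antiviral protein gene, differed by 0.07, the deubiquitinase gene Cyld by 0.16 (0.28 in knockdown 1 and 0.03 in knockdown 2), and Nlrx1, which encodes a mitochondrial protein reported to restrain MAVS, by -0.11. None of these passed over all genes, and Nlrx1 was dim.

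Downstream of the adaptors, 13 of 17 listed genes were measured, with a median log2 difference of 0.05, 7 with knockdown arrays wholly above the controls and 1 below, beside 21.2% and 17.1% of all genes. The median was 0.11 in knockdown 1 and 0.03 in knockdown 2. Irf7, the interferon-inducible regulatory factor gene, had log2 signals of 7.38 and 7.26 in the knockdown arrays, against 7.05 and 7.08 in the controls (log2 difference 0.25, SE 0.08, unadjusted p = 0.0146, limma adjusted p = 0.728). Irf3, the constitutive factor that TBK1 phosphorylates, had 7.24 and 7.33, against 7.25 and 7.36, and its groups overlapped. Ikbke, which encodes the kinase most closely related to TBK1, differed by 0.18 (0.29 in knockdown 1 and 0.06 in knockdown 2). Traf3 was not analysed here.

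The interferon genes themselves were dim. Ifnb1, which encodes interferon beta, had log2 signals of 3.84 and 3.68 in the knockdown arrays, against 3.53 and 3.68 in the controls, and its groups overlapped. Of the 15 measured ligand, receptor and signalling genes, 4 lay wholly above the controls and 2 wholly below, beside 21.2% and 17.1% of all genes. Their median log2 difference was 0.10, but 0.12 in knockdown 1 and -0.0034 in knockdown 2, so it had no positive value without knockdown 1. The receptor chain genes Ifnar1 and Ifnar2 differed by -0.03 and 0.16, and the arrays of both overlapped. The difference of Ifnar2 was 0.32 in knockdown 1 and -0.0024 in knockdown 2. In limma 2 genes of this list were higher and 0 lower at the unadjusted level of 0.05, beside 4.15% and 2.52% of all genes, and 0 passed over the whole table. They were Usp18, which encodes an inhibitor of interferon receptor signalling (log2 difference 0.17, unadjusted p = 0.00604, limma adjusted p = 0.68), and the receptor kinase gene Jak1 (0.26, unadjusted p = 0.0176, limma adjusted p = 0.728).

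Partners of PKR were listed together with the other kinases of the translation factor eIF2alpha and with genes downstream of them. This joint list had a median log2 difference of -0.0061 over 11 measured genes. Of these, 4 had knockdown arrays wholly above the controls and 3 wholly below, beside 21.2% and 17.1% of all genes. The median was 0.02 in knockdown 1 and -0.0042 in knockdown 2. Prkra, which encodes the PKR activator PACT, had log2 signals of 6.96 and 6.79 in the knockdown arrays, against 6.69 and 6.62 in the controls (log2 difference 0.23, SE 0.09, unadjusted p = 0.041, limma adjusted p = 0.743). Adar, the RNA-editing enzyme gene that keeps self RNA from PKR and MDA5, differed by 0.12, and Dnajc3, a PKR inhibitor gene, by -0.09. The 3 measured cell death partners of ZBP1 and TRIF each lay wholly above the controls, beside 21.2% of all genes. They were Casp8 (log2 difference 0.19), Mlkl (0.13) and Ripk3 (0.13, at percentile 12.2), and Casp8 had an unadjusted p of 0.037 (limma adjusted p = 0.743).

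Among other toll-like receptor genes and their helpers, 3 of 13 (23.1%) had knockdown arrays wholly above the controls, close to the 21.2% of all genes. Wholly below them lay 1 of 13 (7.69%), beside 17.1% of all genes. Their median log2 difference was 0.05 (0.04 in knockdown 1 and 0.03 in knockdown 2), and in limma 0 reached the unadjusted level of 0.05. Myd88, the adaptor gene of most toll-like receptors other than TLR3, differed by 0.09, and Unc93b1, which encodes the chaperone of endosomal receptors, by 0.10. Tlr7 and Tlr9, which sense single-stranded RNA and DNA in endosomes, differed by -0.04 and 0.17 at percentiles 23.2 and 38.4. In the list of cytosolic DNA sensors, 1 of 6 measured genes lay wholly above the controls, beside 21.2% of all genes, and the median was 0.06 (0.20 in knockdown 1 and 0.02 in knockdown 2). Cgas differed by 0.09, Sting1 by 0.02 and Ifi204 by 0.08.

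**Figure D4:**
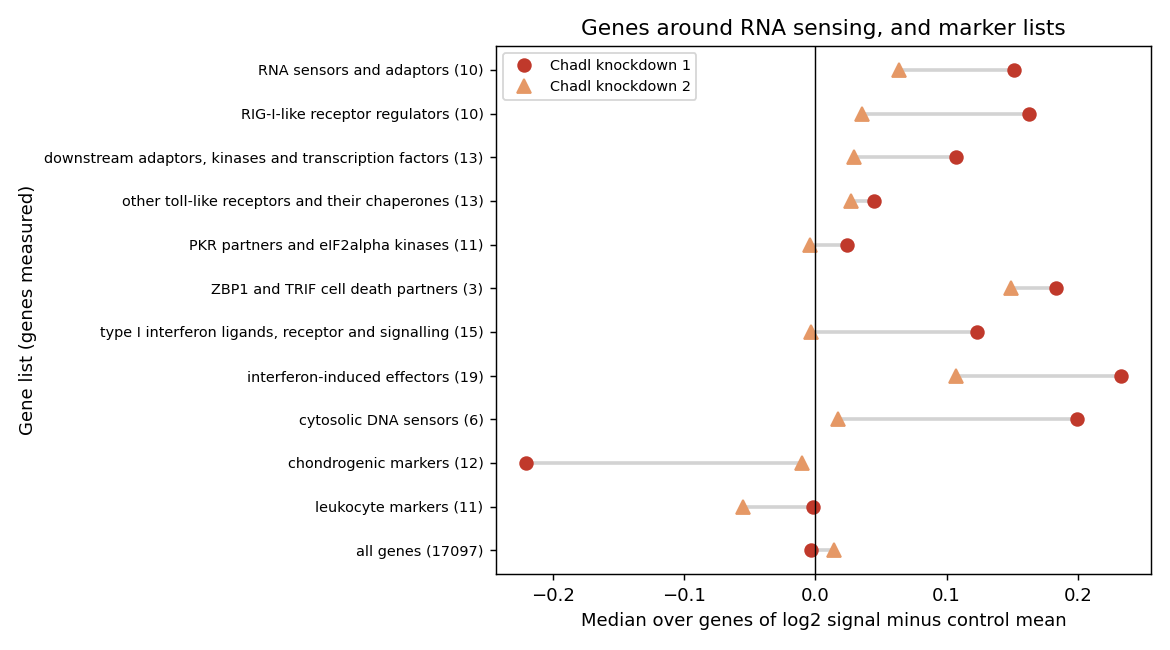
Median over genes of log2 signal minus the control mean (horizontal axis) in Chadl knockdown 1 (circles) and Chadl knockdown 2 (triangles) for the RNA sensors, related lists, marker lists and all genes (vertical axis, with the number of genes measured). The 10 RNA sensors sit at 0.15 and 0.06, the interferon-induced effectors at 0.23 and 0.11, and the cartilage markers at -0.22 and -0.01.

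The cartilage markers had a median below the controls in knockdown 1, the array with the higher sensor signals. Over 12 chondrogenic markers the median log2 difference was -0.22 in knockdown 1 and -0.01 in knockdown 2, with 1 gene above both controls in both arrays and 3 below, beside 21.2% and 17.1% of all genes, and their summed signal was 1598 and 1998 in the knockdown arrays and 1803 and 1859 in the controls. Of the markers chosen for their role, Col2a1 was at -0.82 in knockdown 1 and 0.12 in knockdown 2. Sox9 (0.0056 and -0.011), Acan (-0.015 and -0.0087) and Comp (-0.05 and 0.13) lay nearer the control mean in knockdown 1. Other markers were also low in knockdown 1, namely Matn1 (-0.77 and 0.05), Col9a1 (-0.68 and 0.17) and Hapln1 (-0.62 and -0.20). So were Col11a2 (-0.42 and -0.30) and Sox5 (-0.35 and -0.16). Hapln1, Col11a2 and Sox5 were the 3 below both controls in both arrays. Of the 12 markers, 3 lay above the control mean in knockdown 1. The part of the cartilage marker values in those of the RNA sensors was not tested.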

How the data were processed

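RNA from 4 samples, grouped by their titles, was read on Affymetrix mouse arrays. The authors deposited log2 signals per probe set, normalized with RMA per the submitters' processing notes, whose software is not given in the sources used here. RMA makes the arrays' distributions alike, which removes differences in total RNA, and compresses changes of dim genes. The log base was taken from the range of values (2.17 to 12.72), and array medians were 4.24 to 4.25. With 2 arrays per group, precision is low for every value.

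Of 45141 probe sets, 104 array controls were left out of the tests. The platform annotation, which can be old, gave 1 symbol for 28898 probe sets, several for 551 and none for 15692, and each of 17097 genes was represented by its brightest probe set with 1 symbol. By gene identifier, 28689 matched RefSeq's gene table (GRCm38.p6), and 0 symbols differed. Groups were compared with limma 3.58.1 in R 4.3.3 (eBayes with a mean-variance trend, 2 residual and 4.45 prior degrees of freedom). Two-sided p-values were Benjamini-Hochberg adjusted over all genes, or over all 45037 probe sets where these were the rows, and 0.05 was the threshold. The step was tested on simulated data. SEs and intervals are those of the moderated fit, and SDs are over 2 arrays. Sequences are from RefSeq and, for the duplex, from the labels.

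The members and lists were chosen with earlier results of these data known, so no list is independent evidence. Named genes are the 10 members, Chadl, and from each other list those chosen for their role or passing over all genes. Col11a1, Matn1, Col9a1, Hapln1, Col11a2, Sox5, Isg20, Gbp2, Parp14, Cxcl10, Oasl2, Rtp4, Usp18 and Jak1 were named after their values were seen. The alternatives tried stand in the closing section.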

Additional observations from a re-analysis of the deposited data

How the results depend on the processing

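Over the 8 settings that kept all 4 arrays (quantile normalization, centring on the array median, leaving out dim genes, the mean of all probe sets, leaving out probe sets with the suffix _s_at or _x_at, eBayes without trend, robust eBayes and the replicate block), each of the 10 genes kept its sign and its side of the threshold in limma, with adjusted p at or above 0.52. Ticam1 had no value without the _s_at and _x_at probe sets. In that setting 1 gene passed over all genes, not one of the 10. With the mean of probe sets, 1 of the 10 (Ifih1) and not 2 were past the unadjusted level of 0.05, beside 6.63% of all genes. In these settings 4 or 5 of the 10 genes lay wholly above the controls, beside 20.3% to 23% of all genes tested. Zbp1 left this group with quantile normalization, Ddx58 with the mean of probe sets, and Tlr3 without the _s_at and _x_at probe sets. The median over the 10 ran from 0.056 to 0.10. At an adjusted p of 0.1 there were still 0 genes.

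Leaving out 1 array at a time gave 0 to 2584 passing genes (561 without knockdown 1, 2584 without knockdown 2, 0 without either control), 0 to 6 passing members, 0 to 6 passing member probe sets, 0 to 7 members at the unadjusted level of 0.05 (0 without control 1 and 1 without control 2, each beside 1.95% of all genes, 3 without knockdown 1 beside 15.4%, and 7 without knockdown 2 beside 26.2%) and a median of 0.064 to 0.15. A lone knockdown array adds nothing to the estimate of the spread. The sign turned for Mavs without control 1 (-0.00041) and without knockdown 2 (-0.14, in a range of -0.14 to 0.16), for Eif2ak2 without control 1 (-0.0011) and without knockdown 1 (-0.048, in a range of -0.048 to 0.10), for Tbk1 without control 1 (0.010) and without knockdown 2 (0.0099, in a range of -0.065 to 0.010), and for Dhx58 without knockdown 1 (-0.024, in a range of -0.024 to 0.17). The cause of these turns was not tested.

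No effect shared by replicate number was seen over genes. The difference between the controls and that between the knockdown arrays had a correlation of -0.0041. This cannot tell whether the arrays were paired, since each difference comes from 1 pair of arrays. With the replicate block 3 of the 10 genes were past the unadjusted level of 0.05, beside 6.13% of all genes, and 0 passed. Dim signals limit what can be seen for Ifnb1, Nlrx1 and Ripk3.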

Other observations

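Of the 10 RNA sensors and adaptors and 19 interferon-induced effectors, the difference in knockdown 1 exceeded that in knockdown 2 by the most for Mx1 (0.85 and 0.11), Zbp1 (0.74 and 0.07), Cxcl10 (0.71 and 0.11), Gbp2 (0.65 and 0.13), Isg20 (0.63 and 0.20) and Parp14 (0.53 and 0.17), given as log2 signal minus the control mean in knockdown 1 and knockdown 2 and singled out after the values were seen. A second set, also singled out after the values were seen, was even across the arrays. It held Ifit3 (0.28 and 0.28), Oasl2 (0.16 and 0.17), Ddx58 (0.23 and 0.19) and Rtp4 (0.11 and 0.07). Ifit1 was larger in knockdown 2 (0.23 and 0.31). The second set is not complete, since Tlr3 (0.14 and 0.11) was about as even. Most of the 11 genes singled out came from the list of interferon-induced effectors. That all 11 are known interferon targets therefore follows largely from the choice. In limma none of the 11 passed over all genes.

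The GAAANNGAA core was present in the promoter windows of 13 of 18 interferon-induced effector genes with a window (72.2%), beside 4 of 8 RNA sensors and adaptors (50%) and 9.76% of all genes with a window. For TTCNNNGAA the shares were 7 of 18 (38.9%), 1 of 8 (12.5%) and 9.55%. The 18 were drawn from the 23 listed effector genes, measured or not. Because these genes were listed as interferon-induced, their shares follow at least in part from the choice.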
